A study of Drosophila melanogaster with 3 samples.

Results

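The glutathione transferase (Gst) and UDP-glycosyltransferase (Ugt) genes of Drosophila melanogaster were followed in male flies lacking kep1, which encodes an RNA-binding protein, on 3 spotted 2-colour cDNA arrays. On each array, RNA of kep1-/kep1- males carried Cy5 and RNA of wild-type w1118 males, a white-eyed laboratory strain, carried Cy3. According to the design text the flies were 3 to 4 days old, their heads were used and 3 RNA samples were independent. The source labels say male RNA and no tissue. The dyes were not swapped and the strain background of the mutant is not given, so genotype, dye and strain cannot be told apart. A gene belonged to the set when its symbol began with Gst or Ugt followed by its class letter or family number. The current annotation holds 70 such genes, 35 Gst and 35 Ugt. Of these, 49 were measured among 9162 named genes on the arrays: 31 Gst genes in 6 classes and 18 Ugt genes in 10 families. They were represented by 57 cDNA probes, all of which passed the filter on dim spots, and the other 4 Gst and 17 Ugt genes were not analysed here. Where a gene had 2 probes, the brighter one stands for it.

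Gst enzymes join glutathione to reactive or foreign compounds, and Ugt enzymes attach a sugar from a UDP-sugar donor to small lipophilic molecules, which makes the products easier to excrete. Both superfamilies have expanded in insects as clusters of neighbouring genes, the delta and epsilon Gst classes most of all, and both serve in the clearance of insecticides, plant toxins and hormones. In the insect head they are found in fat body, glia and sense organs, where such enzymes also clear odorants from the antenna.

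Values are background-corrected and loess-normalized log2 ratios of the mutant over the wild type, in which 0 means equal signal, and the test is limma's moderated test of the 3-array mean against 0 with Benjamini-Hochberg adjustment over all 11733 probes. The targeted gene, listed as qkr58E-3, had foreground intensities of 254, 240 and 228 in the mutant, against 852, 865 and 1343 in the wild type. Its log2 ratios were -1.59, -1.35 and -2.13. It was lower in the mutant on every array, as the labels require, although its adjusted p of 0.0726 missed the threshold of 0.05. All 16 photoreceptor genes examined as head markers had a spot signal over the level of the blank spots on all 3 arrays.

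No Gst or Ugt gene passed the adjusted threshold, where 0.131% of all named genes did. The lowest adjusted p of a member was 0.0960, for Ugt35B1. At an unadjusted p under 0.05, 4 of the 49 genes were higher in the mutant, beside 5.69% of all named genes. In the other direction 5 of the 49 were lower, beside 9.98%. The higher genes were GstE3, GstE9, GstZ1 and Ugt49B1, and the lower ones were Ugt35B1, Ugt50B3, Ugt302C1, GstD3 and GstS1. All 9 genes had the same sign on the 3 arrays. In all, 11 members had a positive ratio on every array and 11 a negative one, where the background shares were 17.8% and 21.5%. Most members lay near 0: 40 of the 49 had a mean log2 ratio within 0.25 of 0, and the median was 0.01 over all members, against -0.01 over all named genes.

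**Figure D1:**
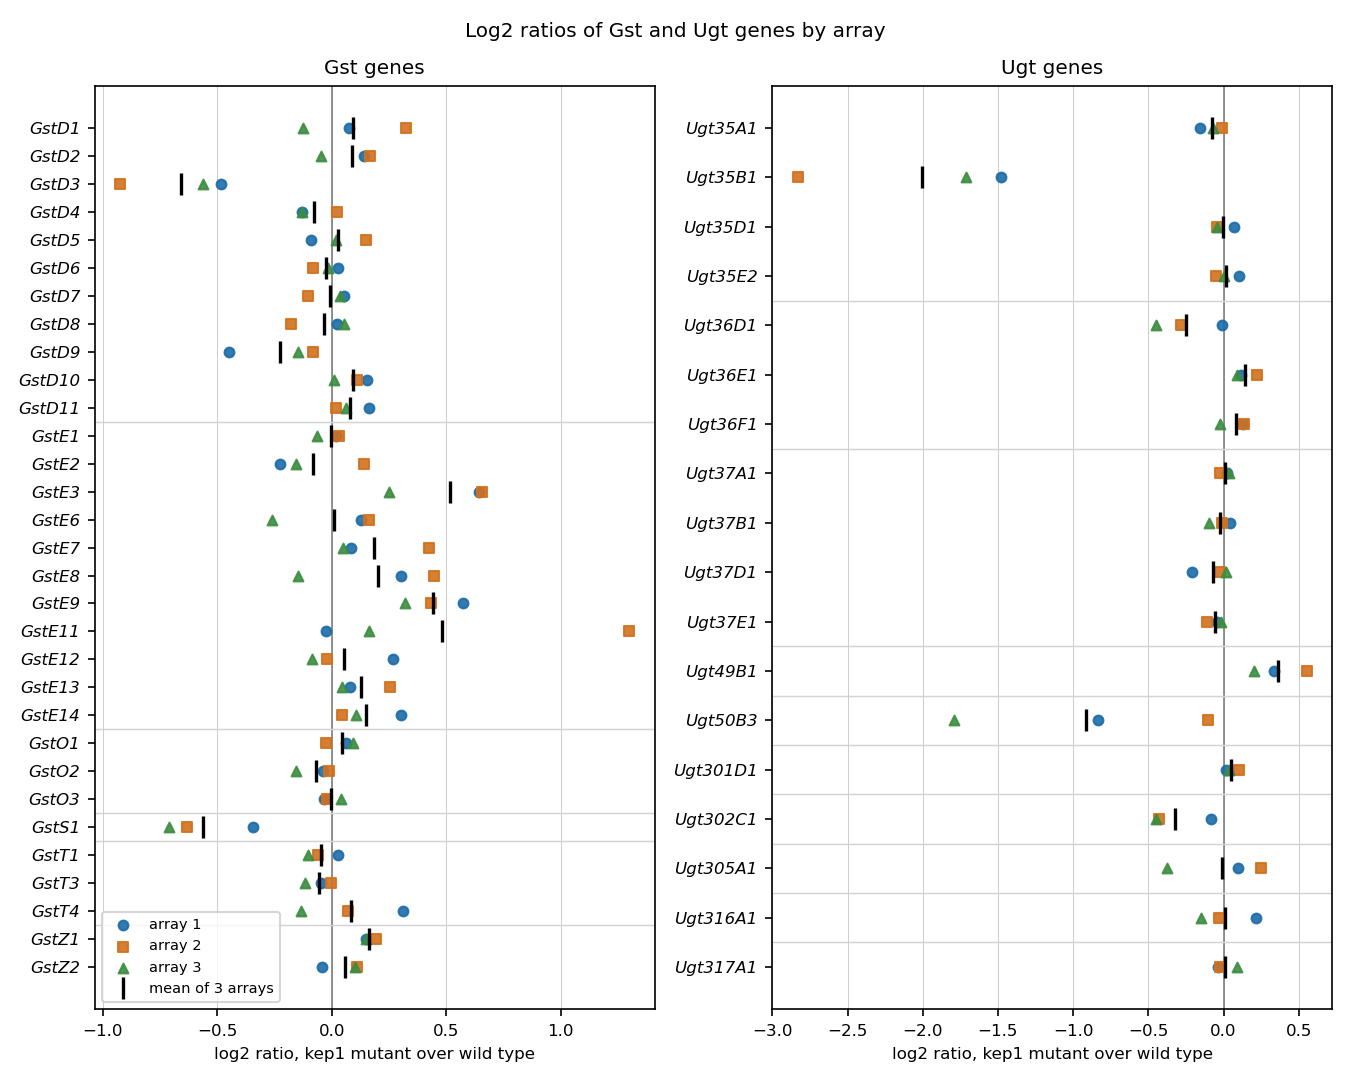
Log2 ratio of kep1 mutant over wild type for each Gst gene (left) and each Ugt gene (right), with a symbol for each array and a bar at the mean of 3 arrays. The horizontal axes of the panels differ in scale. Grey lines separate classes and families, and most genes cluster near 0 while Ugt35B1 lies at -1.48, -2.83 and -1.71.

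Among the Ugt genes, Ugt35B1 stood farthest from 0. It encodes a membrane-bound glycosyltransferase described in Drosophila antennae. Its spots gave 147, 67.2 and 123 in the mutant, against 671, 1535 and 856 in the wild type. The groups did not overlap: the wild-type signal was above the 95th percentile of the spots labelled blank on all 3 arrays, and the mutant signal was below it on all 3. Against its local background, the mutant spot was measurable on 1 of the 3 arrays, so the probe passed the filter on dim spots through its wild-type signal. The log2 ratios of -1.48, -2.83 and -1.71 averaged -2.01 ± 0.72 (SD, n = 3). With the mutant spot at the level of the blank spots, the size of this ratio depended on how background was treated, and no fold is given. By limma its adjusted p was 0.0960, so the difference missed the threshold. The call depended on the processing: the adjusted p was 0.00418 with no background correction, where the mean log2 ratio was -3.06, and 0.00293 with plain subtraction of the background, where it was -3.23. It was 0.0374 without array 2, the array with the most negative ratio. A filter added after the values were seen kept probes over the blank level in at least 1 channel on all 3 arrays. With it the adjusted p by limma was 0.00693. Ugt35B1 passed that filter through the wild-type channel alone, so this value is no separate support for a difference. Over the 13 alternatives tried for this gene, the adjusted p by limma ran from 0.00165 to 0.326.

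In the genome Ugt35B1 lies in a run of 6 Ugt genes, of which 3 were measured. Its neighbours Ugt35E2 and Ugt35A1 had mean log2 ratios of 0.02 ± 0.08 and -0.08 ± 0.07 (SD, n = 3). The spots of both neighbours were dim. Those of Ugt35A1 gave 153, 102 and 100 in the mutant, against 233, 115 and 129 in the wild type. They exceeded the blank level on no array in the mutant and on 1 in the wild type, and those of Ugt35E2 did likewise, so a change in either neighbour could not be detected at this signal. The fourth measured member of the family, Ugt35D1, also stood near 0 with a dim spot, and the family median of -0.04 describes these 3 dim genes rather than Ugt35B1. In RNA of mixed cells, fewer expressing cells and less RNA per cell cannot be told apart. Of the 10 olfactory-organ markers listed, 3 were measured. The log2 ratios were -0.04 for the odorant-binding protein gene Obp83a, -0.02 for lush and 0.13 for Obp19d, and 2 of the 3 were below the blank level in both channels.

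Ugt50B3, the only measured member of its family, had the widest range over arrays of all Ugt genes. The mutant spots gave 602, 1022 and 861, against 912, 1289 and 2956 in the wild type. The wild-type signal on array 3 stood far above the other 5 values, and the rest of the 2 groups overlapped. The log2 ratios were -0.84, -0.10 and -1.79, with a mean of -0.91 ± 0.85 (SD, n = 3) and an adjusted p of 0.320 by limma. A second probe of Ugt50B3 gave -0.50, -0.27 and -1.16, with array 3 again the most negative. Without array 3 the mean was -0.47, and without array 2 it was -1.31.

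Ugt302C1 had log2 ratios below 0 on all 3 arrays, by a smaller amount. In the mutant its spots gave 577, 681 and 602, against 547, 1109 and 838 in the wild type, so the groups overlapped. On array 1 the mutant spot was the brighter, and the ratio there was below 0 only after correction and normalization. The log2 ratios were -0.08, -0.43 and -0.45, averaging -0.32 ± 0.21 (SD, n = 3) with an adjusted p of 0.237 by limma. Its second probe averaged -0.25 but was slightly positive, at 0.03, on array 1.

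Ugt49B1 went the other way. Foreground intensities were 508, 868 and 590 in the mutant, against 404, 679 and 511 in the wild type. The mutant was the brighter channel on every array, although the 2 groups overlapped because the arrays differed in brightness. The log2 ratios of 0.33, 0.55 and 0.21 averaged 0.36 ± 0.18 (SD, n = 3), and the adjusted p was 0.170 by limma.

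**Figure D2:**
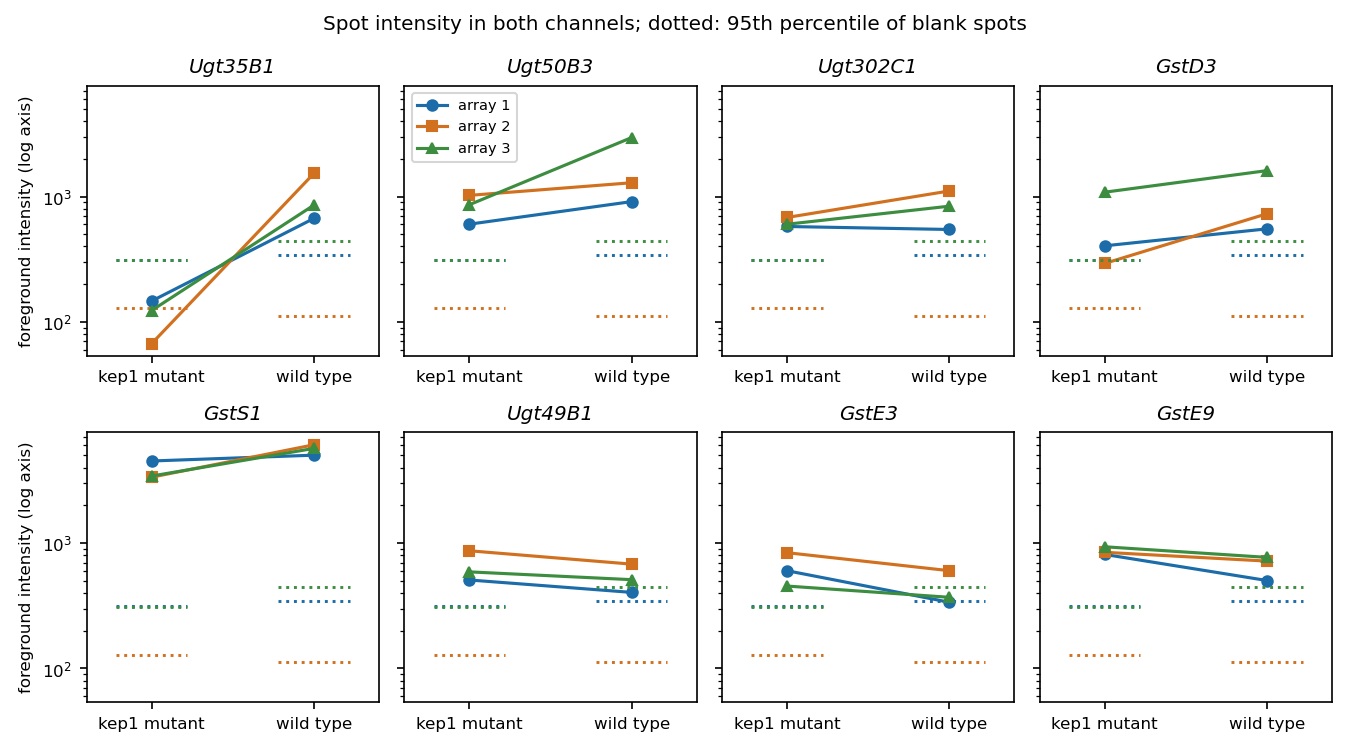
Foreground intensity of the spots of 8 genes on a log axis, in the kep1 mutant (left in each panel) and the wild type (right), with a line per array and dotted segments at the 95th percentile of blank spots for that array and channel. For Ugt35B1 the mutant signal of 147, 67.2 and 123 lies below the dotted level on each array, and the wild-type signal lies above it.

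The measured genes of the Ugt36 and Ugt37 families had small ratios. Ugt36E1, described in the Drosophila olfactory system, had log2 ratios of 0.12, 0.22 and 0.09, and Ugt36D1 had -0.01, -0.28 and -0.45, with adjusted p of 0.346 and 0.353 by limma. These 2 genes and Ugt36F1 form 1 run in the genome, and their means of 0.14, -0.25 and 0.08 did not share a sign. In the Ugt37 family the mean log2 ratios ran from -0.07 for Ugt37D1 to 0.01 for Ugt37A1. None of its 4 genes exceeded the blank level on all 3 arrays, so these values carry little information on the RNA. The single-gene families of Ugt301D1, Ugt305A1, Ugt316A1 and Ugt317A1 had means between -0.01 and 0.05.

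The delta class, whose members include the DDT-metabolizing enzyme GstD1, had a median log2 ratio of -0.01 over 11 genes. GstD1 itself gave 1039, 2016 and 1111 in the mutant, against 893, 1870 and 1225 in the wild type. Its log2 ratios of 0.08, 0.33 and -0.13 differed in sign between arrays, and its mean of 0.09 ± 0.23 (SD, n = 3) was the highest of the class. The 10 genes GstD1 to GstD10 lie side by side, and all were measured.

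In that run GstD3 and GstD9 were lower in the mutant on all 3 arrays. GstD9 had log2 ratios of -0.45, -0.08 and -0.15, with an adjusted p of 0.356 by limma. Of the 11 delta genes, 4 exceeded the blank level on all 3 arrays. For GstD3, intensities of 405, 293 and 1083 were measured in the mutant, against 553, 730 and 1610 in the wild type. The mutant was the dimmer channel on every array, while the groups overlapped because array 3 was brighter for this probe. The log2 ratios of -0.49, -0.92 and -0.56 averaged -0.66 ± 0.23 (SD, n = 3), a 1.58-fold lower signal in the mutant with a 95% interval of 1.30 to 1.92. Its adjusted p by limma was 0.103. The adjusted p was 0.0412 with no background correction, 0.0433 with an intensity trend and robust variances, and 0.0246 with the filter at the blank level, and over 14 alternatives it ran from 0.0246 to 0.334. A second probe of GstD3 stood at -0.03 ± 0.05 (SD, n = 3) with spots of 171, 83.2 and 112 in the mutant, against 205, 94.5 and 108 in the wild type. This second probe stayed below the blank level in both channels. Its neighbours GstD2 and GstD4 had means of 0.09 and -0.08. The cDNA probes of related neighbours can bind each other's transcripts, and the probes were not compared by sequence.

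The epsilon class had a median log2 ratio of 0.15 over 11 genes, and the class medians on the arrays were 0.13, 0.26 and 0.05. The epsilon median exceeded the delta median on all 3 arrays, by 0.10, 0.24 and 0.06. Of the 11 genes, 5 were positive on every array, beside 17.8% of all named genes, none was negative on every array, and 6 had mixed signs. These 5 were GstE3, GstE7, GstE9, GstE13 and GstE14. No epsilon gene passed the adjusted threshold in any setting examined.

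GstE3 had the highest mean of all members. It gave 602, 838 and 454 in the mutant, against 337, 602 and 370 in the wild type, so the groups overlapped although the mutant was brighter on each array. The log2 ratios were 0.65, 0.66 and 0.25, averaging 0.52 ± 0.23 (SD, n = 3), a ratio of 1.43 with a 95% interval of 1.18 to 1.73. By limma its adjusted p was 0.140. In the wild type this spot exceeded the blank level on 1 array, and in the mutant on all 3.

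For GstE9 the spread between arrays was small beside the mean. The mutant intensities were 812, 844 and 934, against 503, 718 and 769 in the wild type, and the groups did not overlap. The log2 ratios of 0.57, 0.43 and 0.32 averaged 0.44 ± 0.13 (SD, n = 3), a ratio of 1.36 with a 95% interval of 1.19 to 1.55. By limma its adjusted p was 0.103.

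GstE3 and GstE9 lie in a run of 10 epsilon genes, of which 7 were measured. The means in that run, in genome order, were 0.00 for GstE1, -0.08 for GstE2, 0.52 for GstE3, 0.01 for GstE6, 0.19 for GstE7, 0.20 for GstE8 and 0.44 for GstE9. The 2 genes with the highest means were thus not adjacent, and their measured neighbours lay nearer to 0. GstE2, the lowest of the class, changed sign between arrays at -0.23, 0.14 and -0.15. GstE11 had the widest range of all Gst genes: its log2 ratios were -0.02, 1.30 and 0.16, and its mean of 0.48 rested on array 2. Without array 2 its mean was 0.07, and without array 1 it was 0.73.

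**Figure D3:**
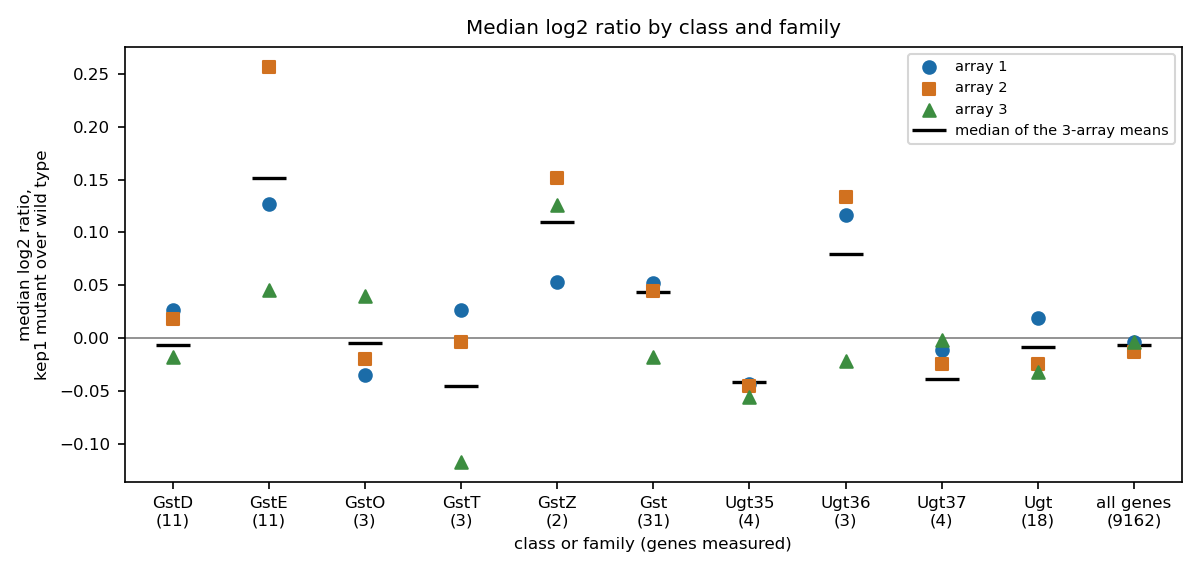
Median log2 ratio of kep1 mutant over wild type for each Gst class and Ugt family with at least 2 measured genes, for both superfamilies and for all named genes, with a symbol per array and a bar at the median of the 3-array means. The array medians of the epsilon class run from 0.05 to 0.26, while all named genes sit at about -0.01.

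GstS1, the sigma-class enzyme abundant in the flight muscle of Drosophila, where it conjugates products of lipid peroxidation, was lower on all 3 arrays. Its mutant spots gave 4513, 3353 and 3423, against 5022, 6078 and 5688 in the wild type, and the groups did not overlap. The log2 ratios of -0.34, -0.63 and -0.71 averaged -0.56 ± 0.19 (SD, n = 3), a 1.48-fold lower signal in the mutant with a 95% interval of 1.25 to 1.75. By limma its adjusted p was 0.105, and it was 0.0331 with the filter at the blank level, in a range of 0.0331 to 0.339 over 14 alternatives. A second, much dimmer probe of GstS1 averaged -0.05 ± 0.15 (SD, n = 3) and stayed below the blank level in both channels.

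Of 17 muscle genes, a list made after the values were seen, 7 were lower on all 3 arrays, beside 21.5% of all named genes, none was higher on all 3 and 10 had mixed signs. No muscle gene passed the adjusted threshold by limma. The unadjusted test placed 0 higher and 6 lower, beside 5.69% and 9.98% of all named genes. Among named genes over the blank level on all 3 arrays, as 16 of the 17 muscle genes were, the shares were 12.0% and 17.2%. The means ran from -1.57 for fln to 0.35 for bt, with a median log2 ratio of -0.12. Their summed foreground intensity, neither corrected nor normalized, was 69346 to 78166 in the mutant, against 83792 to 90561 in the wild type. Over all probes the median foreground was 227 to 274 in the mutant, against 248 to 307 in the wild type. Such sums therefore also hold the general difference between the channels. None of the 17 muscle genes was below the blank level in both channels. The flight muscle gene fln, for flightin, had log2 ratios of -0.96, -1.73 and -2.02, and TpnC4, a flight muscle troponin C, had -0.58, -0.90 and -1.93. The flight muscle actin Act88F had -0.40, -0.25 and -0.21, and the troponin T gene up had -0.32, -0.25 and -0.09. These genes were picked after their values were seen. Mhc, sls and bt had positive means of 0.04, 0.23 and 0.35, with mixed signs over the arrays. The part of muscle RNA in the GstS1 ratio was not tested.

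The zeta class catalyses a step in tyrosine breakdown, and GstZ1 had the smallest spread of the 9 genes picked out by the unadjusted test. Its spots gave 299, 247 and 268 in the mutant, against 254, 246 and 226 in the wild type, with overlap. The log2 ratios were 0.15, 0.19 and 0.15, averaging 0.16 ± 0.03 (SD, n = 3), with an adjusted p of 0.248 by limma. This spot exceeded the blank level on array 2 alone. The neighbouring GstZ2 averaged 0.06 ± 0.09 (SD, n = 3).

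The omega class, which reduces oxidized substrates through an active-site cysteine, and the theta class stood near 0. GstO1 and GstO2 averaged 0.04 and -0.07, and GstT4 and GstT3 averaged 0.08 and -0.06. GstT4 had spots of 1850, 1874 and 1738 in the mutant, against 1323, 2081 and 1938 in the wild type, and its log2 ratios of 0.31, 0.07 and -0.13 differed in sign. The 27 members not picked out by any naming rule lay between -0.23 and 0.20, with adjusted p from 0.356 upward by limma.

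The brightness of the spots set what could be seen. Of the 49 genes, 21 exceeded the blank level in at least 1 channel on all 3 arrays, 14 Gst and 7 Ugt, as did 3392 of the 9162 named genes. The means of the 28 other members ran from -0.25 to 0.48. The 21 brighter members had a median of 0.01, against -0.01 in the 3392 genes, and ran from -2.01 to 0.52. By the unadjusted test 3 of these 21 were higher and 5 were lower, beside 12.0% and 17.2% of the 3392 genes. Among those counted, Ugt35B1 was over the blank level in the wild type alone. GstE3 was over it on 3 arrays in the mutant and on 1 in the wild type. These counts therefore depend in part on the channel in which a gene was high. For a dim spot the correction pulls the ratio towards 0, so a value near 0 there is no evidence of equal RNA.

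**Figure D4:**
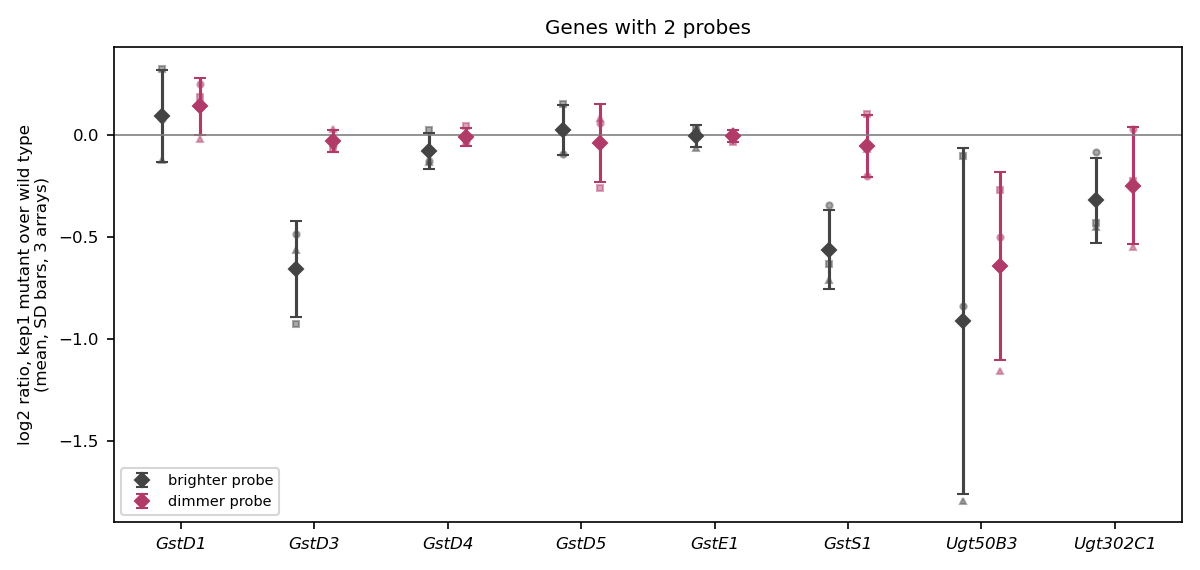
Mean log2 ratio of kep1 mutant over wild type for the brighter and the dimmer probe of 8 genes with 2 probes, with SD bars and small symbols for the 3 arrays. The probes of GstD3 differ, at -0.66 and -0.03, as do those of GstS1, at -0.56 and -0.05, while both probes of Ugt50B3 and of Ugt302C1 lie below 0. The dimmer probes of GstD3 and GstS1 stayed below the blank level in both channels, so their values near 0 are no evidence of equal RNA.

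The genes that feed these enzymes were examined as lists. Of 24 measured genes for glutathione synthesis and redox cycling, none passed the adjusted threshold by limma, and the median log2 ratio was -0.04. The unadjusted test placed 2 higher and 6 lower, beside 5.69% and 9.98% of all named genes. Among named genes over the blank level on all 3 arrays, as 18 of the 24 were, the shares were 12.0% and 17.2%. Both subunits of the enzyme that makes the glutathione precursor were among the lower ones: Gclc, the catalytic subunit, had log2 ratios of -0.16, -0.22 and -0.37, and Gclm, the modifier subunit, had -0.16, -0.56 and -0.27. Their adjusted p values by limma were 0.202 and 0.231. Both genes were picked after their values were seen. On array 1 the foregrounds were 712 in the mutant and 692 in the wild type for Gclc, and 1017 and 1009 for Gclm. The ratios there were below 0 only after correction and normalization. The lowest gene of the list was TrxT, a testis-specific thioredoxin in Drosophila, at -0.97, 0.01 and -1.11. The highest was Prx6c, a peroxiredoxin, at 0.84, 0.99 and 0.56, with an adjusted p of 0.0918 by limma.

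Among 12 measured genes for the supply of UDP-sugars, none passed the adjusted threshold. At the unadjusted one 1 was higher and none lower, beside 5.69% and 9.98% of all named genes. The highest was Gfat1, which makes the hexosamine precursor of UDP-GlcNAc, with log2 ratios of 0.59, 0.41 and 0.39. The lowest was Ugalt, a UDP-galactose transporter, at -0.27, -0.17 and -0.04. UGP and sgl, which make UDP-glucose and UDP-glucuronate, averaged 0.08 and 0.00.

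The regulators of detoxification genes and the export pumps gave 0 higher and 1 lower of 17 at the unadjusted threshold. The shares of all named genes were 5.69% and 9.98%. The median of this list was -0.03. The oxidative stress factor cnc averaged -0.22 ± 0.23 and its inhibitor Keap1 0.10 ± 0.05 (SD, n = 3), and the nuclear receptor Hr96, highest of the list, averaged 0.10. Only 3 of the 17 genes were over the blank level on all 3 arrays. The lowest was CG31793 at -1.23, -0.17 and -1.26. Of 6 other proteins with a glutathione transferase fold or activity, the microsomal transferase Mgstl was the highest at 0.40, 0.41 and 0.17 and Clic the lowest with a mean of -0.10. Of 16 other conjugating and hydrolysing enzymes, the unadjusted test placed 3 higher and 1 lower, beside the same 5.69% and 9.98%. The extremes were the carboxylesterase alpha-Est1 at 0.08, 0.81 and 0.39 and the juvenile hormone epoxide hydrolase Jheh3 at -0.40, -0.50 and -0.40.

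Transcripts of organs outside the head were measured in both RNAs, with lower signals in the mutant for the gut, testis and accessory gland lists. Of 18 gut enzyme genes, 16 were lower on all 3 arrays, beside 21.5% of all named genes. The summed foreground intensity of the 18 was 12013 to 20432 in the mutant, against 28702 to 43363 in the wild type. All sums in this paragraph are uncorrected, as for the muscle genes. Of 15 testis and accessory gland genes, 13 were lower on all 3 arrays, beside the same 21.5%, with sums of 14790 to 23698 in the mutant and 25821 to 40274 in the wild type. The count, the sums and the median given below include svp, which entered through a synonym of the list entry don. This gene was not chosen as a marker of these organs. It was among the 13, at -0.28, -0.12 and -0.14. Its spots gave 2967, 3860 and 3519 in the mutant, against 3150, 4867 and 3953 in the wild type. By limma 2 of the gut genes, the amylases Amy-d and Amy-p, and 1 of the testis genes, loopin-1, passed the adjusted threshold, beside 0.131% of all named genes. Whether the probes of the 2 amylase genes bind each other's transcripts was not examined. The median log2 ratios were -0.74 for the gut list and -0.93 for the testis and accessory gland list. Of the gut genes, 2 were below the blank level in both channels, and none of the testis and accessory gland genes was. Of 11 fat body genes, 6 were higher on all 3 arrays, beside 17.8% of all named genes, none was lower on all 3 and 5 had mixed signs, with a median of 0.38. Their sums were 10782 to 19285 in the mutant, against 8995 to 11794 in the wild type. These sums rest in part on Lsp2, the highest gene of the list. Its spots gave 5583, 3025 and 2046 in the mutant, against 409, 757 and 465 in the wild type. On array 3 the sums were 10782 in the mutant and 9434 in the wild type, a smaller gap than that of Lsp2 itself. The list holds yolk protein genes that varied widely between arrays. Yp1 had log2 ratios of -2.54, 2.96 and -0.78, with wild-type spots of 1895, 149 and 1173. Yp3, among the 6, had 0.78, 2.39 and 0.64. The 8 Malpighian tubule genes had a median of -0.05, with 2 lower by the unadjusted test, beside 9.98% of all named genes. However, 4 of the 8 were below the blank level in both channels and 1 was over it on all 3 arrays. The part of these organs in the Gst and Ugt ratios was not tested.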

How the data were processed

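The deposited scanner tables give foreground intensity, local background and its SD per spot and channel, on a linear scale, per the file headers. Each value of the deposited log2 table matched the log2 ratio of the mutant foreground to the wild-type foreground, with no correction or normalization; it served as an alternative. The image software is not given in the sources used here. Intensities were corrected with normexp (offset 50) and normalized by global loess within each array in limma 3.58.1 (R 4.3.3). Control, blank and failed spots were left out, and duplicate spots averaged. Probes had to exceed local background by 2 background SDs in a channel on at least 2 arrays. A gene's brightest probe represents it. The number of arrays, 3, limits the precision. Nothing in the labels says that flies were reared separately, so p-values measure only the spread between these samples. Other background corrections, normalizations, filters, variance models and thresholds, and leaving out each array, were tried as alternatives. Array numbers follow the records' order and are names only. Symbols come from RefSeq (assembly Release 6 plus ISO1 MT), used for names and neighbour order.

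The members and lists were chosen with earlier results of these data known, and the muscle list after the values were seen. The genes named are those with 1 sign on all arrays and an unadjusted p under 0.05, the extremes of each class, family and list, the widest-ranging and the brightest member of each superfamily, and kep1; others were chosen after their values were seen. A planned search of promoters for an antioxidant response motif was not run, since promoter sequences were not used here.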

Additional observations from a re-analysis of the deposited data

How the results depend on the processing

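The number of probes called moved most. Against 17 probes (8 higher, 9 lower), 434 were called with no background correction (116 higher, 318 lower), 390 with plain subtraction (102 and 288), 407 from the deposited log2 table (117 and 290), 292 with an intensity trend and robust variances (73 and 219), 70 with median centring (25 and 45), 35 with a stricter filter on dim probes (13 and 22), 249 at a threshold of 0.1 (90 and 159) and 376 of 4237 tested with the filter at the blank level (111 and 265). Scaling between arrays gave 0, with 1830 probes at an unadjusted p under 0.05 by limma. Leaving out an array gave 0 to 100: 100 without array 2, and 0 without array 1 or array 3, where 1332 and 1194 probes had an unadjusted p under 0.05 by limma.

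Of the Gst and Ugt genes, 2 were called with no background correction and with the intensity trend (GstD3 and Ugt35B1). Ugt35B1 was the 1 gene called with plain subtraction, from the deposited table, at a threshold of 0.1 and without array 2, where leaving out an array gave 0 to 1. The filter at the blank level, which left 21 members to test, called 3 (GstD3, GstS1 and Ugt35B1). The members called in these settings were all lower in the mutant. Ugt35B1 passed the filter at the blank level through the wild-type channel alone. In the glutathione list 1 gene was called with no background correction, plain subtraction, the deposited table, the intensity trend, a threshold of 0.1 and the filter at the blank level, and leaving out an array gave 0 to 1. In the UDP-sugar list 1 was called at a threshold of 0.1 and with the filter at the blank level, and among the other conjugating enzymes 1 at a threshold of 0.1. Among the regulators and pumps, leaving out an array gave 0 to 1, the call coming without array 2.

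The stricter filter left 33 members, without Ugt35B1, and called none, while limma's unadjusted p was under 0.05 for 4 in each direction.

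The median log2 ratio of the Gst genes, 0.043, was 0.089 with no background correction, 0.090 with plain subtraction and 0.11 from the deposited table. The delta median, -0.01, was 0.084 with no background correction, 0.057 with plain subtraction, 0.079 with median centring, 0.11 from the deposited table, -0.079 with the stricter filter and -0.15 with the filter at the blank level, and it had no settled sign. The zeta median, 0.11, was 0.20 with no background correction and 0.21 with plain subtraction. From the deposited table the omega median was -0.061 and the theta median -0.13, and with the filter at the blank level they were -0.068 and 0.084. The Ugt35 median, -0.04, was -0.14 with no background correction, -0.15 with plain subtraction, -0.016 with median centring, -0.17 from the deposited table and -2.01 with the filter at the blank level, which left Ugt35B1 alone. The Ugt36 median, 0.08, was 0.20 with plain subtraction and -0.053 with the stricter filter. The Ugt37 median, -0.04, was -0.10 with plain subtraction, 0.037 with median centring and -0.057 from the deposited table. Leaving out an array gave -0.041 to 0.0061 for the Ugt genes, -0.035 to 0.0043 for the delta class and -0.050 to -0.035 for Ugt35. The epsilon median kept its sign and moved by less than the array spread in each setting.

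The sign of 4 named genes changed: Ugt37A1 was at -0.0053 with print-tip loess, and leaving out an array gave -0.00036 to 0.030 for Ugt37A1, -0.031 to 0.19 for GstT4, -0.024 to 0.053 for Ugt35E2 and -0.024 to 0.20 for GstD1. Except where stated, the cause was not tested. With 3 arrays and many spots at the blank level, differences in dim genes were not detectable. The ratios pair both genotypes within each array, so the test against 0 is itself paired and no further block was fitted.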

Other observations

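Spots of some delta-class genes differed in brightness between arrays far more than in ratio. GstD6 gave 148, 5916 and 98.2 in the mutant, against 167, 7279 and 102 in the wild type, so both channels were bright on array 2 alone, and the log2 ratios stayed within a range of 0.11. GstD4 gave 1421, 457 and 2424 in the mutant, against 1342, 526 and 2706 in the wild type. Its second probe gave 177, 158 and 177 in the mutant, against 226, 171 and 203 in the wild type.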
